A study of Mus musculus with 8 samples.

Results

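Lipocalin 2, Lrg1, the orosomucoids and related secreted proteins were followed in the livers of mice given rilpivirine and of control mice. The set named 10 genes: Lcn2, Lrg1, Orm1, Orm2, Orm3, Serpina3n, Serpina3m, Itih3, Itih4 and Fgl1. A member was a row of the deposited table that the array annotation pairs with exactly that gene symbol and no other, and where a gene had several, the brightest one on average was to be used. 9 of the 10 genes had 1 such row each, out of 22180 genes with a row of their own, and Serpina3m had none under that rule and is not analysed here. All 9 passed the filter on low values and were among the 16635 genes tested. The members were chosen by their log2 differences between rilpivirine and control, which were already known, so that difference is described for them and not tested, and nothing is supported by it.

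These genes encode plasma proteins that the liver makes in the acute phase response, the change in hepatocyte secretion that follows infection or injury. Interleukin 6 acts through its receptor and the kinase JAK to activate the transcription factor STAT3 in hepatocytes, while interleukin 1 acts through NF-kB and C/EBP factors, and both routes raise many acute phase transcripts in inflamed liver. The orosomucoids are lipocalins too, with the same barrel fold as lipocalin 2, and bind drugs and other small lipophilic molecules in plasma.

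The samples were liver RNA of wild-type C57BL/6 mice, 4 labelled rilpivirine and 4 labelled control, with an array for each sample. Rilpivirine is a non-nucleoside inhibitor of HIV reverse transcriptase; it was given daily by mouth at a dose described only as equal to human use, and what the controls received is not stated. Both groups carry a label of non-alcoholic fatty liver disease. Normal chow and a diet with 60% fat, fed for 3 months, are both mentioned but are not assigned to samples, so the model common to both groups is known only by that disease label. The sources used here do not give age, sex or vehicle. Whether the samples are separate mice is not stated, and p-values measure only the spread between samples labelled as replicates.

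The values were log2 expression, and the processing notes name RMA, a method that puts all arrays on a common scale. Array medians ran from 3.33 to 3.45, and each array's mean correlation with the others ran from 0.965 to 0.981, lowest in rilpivirine replicate 2. That array also had the highest small nucleolar RNA signal, 0.49 log2 above the mean of the 8 arrays over 75 probe sets, while control replicate 1 had the lowest, -0.60. The 9 differences are therefore given with and without rilpivirine replicate 2. The tissue label was checked against 10 hepatocyte markers, whose mean level ran from 11.58 to 11.81 with rilpivirine and from 11.68 to 11.90 in controls, with Alb at 13.22 to 13.37 on all 8 arrays.

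RefSeq promoter windows of 300 bases on GRCm38.p6, most of each lying before the gene start, were found for 7 of the 10 genes; Orm1, Serpina3m and Fgl1 were not in the table. Those of Lcn2, Lrg1, Orm2, Orm3 and Itih4 are shown. The first 4 are of genes with large differences or non-overlapping groups. The windows of Orm2 and Orm3 are near copies, and that of Itih4 holds the only match to the STAT letters. Capitals mark matches on either strand to TTCNNNGAA for STAT, TTGCNNAA for C/EBP, a kappa B motif for NF-kB, TGTTCT for part of a glucocorticoid receptor element and TATAAA for a TATA box.
Lcn2, chr2:32387690-32387989, strand minus: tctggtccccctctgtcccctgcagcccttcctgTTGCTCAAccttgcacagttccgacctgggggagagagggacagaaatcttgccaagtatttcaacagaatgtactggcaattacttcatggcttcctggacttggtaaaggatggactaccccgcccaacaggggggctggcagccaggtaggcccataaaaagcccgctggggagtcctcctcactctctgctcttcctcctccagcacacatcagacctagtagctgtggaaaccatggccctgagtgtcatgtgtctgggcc
Lrg1, chr17:56121897-56122196, strand minus: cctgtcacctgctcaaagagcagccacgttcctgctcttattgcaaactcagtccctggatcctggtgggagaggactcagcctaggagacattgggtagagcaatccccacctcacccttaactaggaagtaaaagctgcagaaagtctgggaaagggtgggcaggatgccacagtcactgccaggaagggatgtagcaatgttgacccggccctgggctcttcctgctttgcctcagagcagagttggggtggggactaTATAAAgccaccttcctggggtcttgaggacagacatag
Orm2, chr4:63362199-63362498, strand plus: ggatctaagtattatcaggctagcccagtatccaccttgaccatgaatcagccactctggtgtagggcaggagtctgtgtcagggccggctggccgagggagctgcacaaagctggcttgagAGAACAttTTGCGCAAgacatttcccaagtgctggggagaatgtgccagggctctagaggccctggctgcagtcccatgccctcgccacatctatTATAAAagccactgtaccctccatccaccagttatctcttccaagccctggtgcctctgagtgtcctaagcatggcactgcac
Orm3, chr4:63355908-63356207, strand plus: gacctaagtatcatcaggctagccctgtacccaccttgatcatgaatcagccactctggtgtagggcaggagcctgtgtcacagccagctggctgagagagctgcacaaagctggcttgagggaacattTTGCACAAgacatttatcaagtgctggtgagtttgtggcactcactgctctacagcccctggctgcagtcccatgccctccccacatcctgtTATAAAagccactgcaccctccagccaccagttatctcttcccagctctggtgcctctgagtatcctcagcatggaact
Itih4, chr14:30886226-30886525, strand plus: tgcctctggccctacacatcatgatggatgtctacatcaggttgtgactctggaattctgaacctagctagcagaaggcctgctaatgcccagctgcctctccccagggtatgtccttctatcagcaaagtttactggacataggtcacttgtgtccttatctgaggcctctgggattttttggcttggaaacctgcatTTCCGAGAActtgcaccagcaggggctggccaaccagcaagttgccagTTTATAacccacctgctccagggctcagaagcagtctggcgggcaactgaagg

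The C/EBP letters were found in 3 of the 7 windows, those of Lcn2, Orm2 and Orm3, against 10.8% of all 32851 windows of 300 bases. The Orm2 match reads TTGCGCAA, which is the same on both strands, and the Orm3 match at almost the same distance from the gene start reads TTGCACAA. TATAAA was found in 5 windows (Lrg1, Orm2, Orm3, Itih3 and Itih4), against 13.6% of all windows. Relative to the gene start, the match began at -33 in Orm2, -29 in Orm3, 3 in Itih3 and 11 in Lrg1. In Itih4 it began at -3, on the opposite strand. The STAT letters occurred in 1 window, that of Itih4, against 8.30% of all, the NF-kB motif in that of Serpina3n, against 20.7%, and the glucocorticoid receptor letters in those of Orm2 and Serpina3n, against 19.0%. Matches to different motifs did not overlap. A match is a description of these letters only.

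The Orm2 and Orm3 windows were identical in 264 of 305 aligned positions, 86.6%, where the next closest pair of the 7 windows, Itih3 and Itih4, reached 53.3%. Orm1, Orm3 and Orm2 lie side by side in that order on chromosome 4 in RefSeq. The windows lie mostly before the gene start, so their identity does not measure likeness of the transcripts, and Orm1 had no window. Whether probes of the 3 orosomucoid genes bind each other's transcripts was not tested, since the probe sequences were not used here. The 3 rows are therefore uncertain as measures of single genes.

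All 9 measured genes had lower means with rilpivirine than in controls, and 0 of 9 had a higher one, where 56.9% of the 16635 genes tested had a difference below 0. The median log2 difference of the 9 genes was -0.66, and that of all genes tested was -0.03. Lcn2, Orm3 and Fgl1 each had a log2 difference at or below -1, which 13 of all genes tested had. The groups were fully apart in 3 of the 9 genes (Lcn2, Lrg1 and Orm3), and 1.73% of all genes had groups apart in that direction. limma, the linear model fitted to all genes at once, called 0 of the 9 at a Benjamini-Hochberg adjusted p of 0.05, and 0% of all genes. At an unadjusted p under 0.05 there were 6 of the 9, and 5.21% of all genes. The count of 9 lower genes was the same without rilpivirine replicate 2, where their median was -0.65; the differences then ran from -1.29 in Orm3 to -0.21 in Itih4, with Lcn2 at -1.17, Lrg1 at -0.72, Orm1 at -0.34, Orm2 at -0.65, Serpina3n at -0.30, Itih3 at -0.42 and Fgl1 at -1.08. In whole liver, fewer cells of a type and less RNA per cell cannot be told apart.

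**Figure D1:**
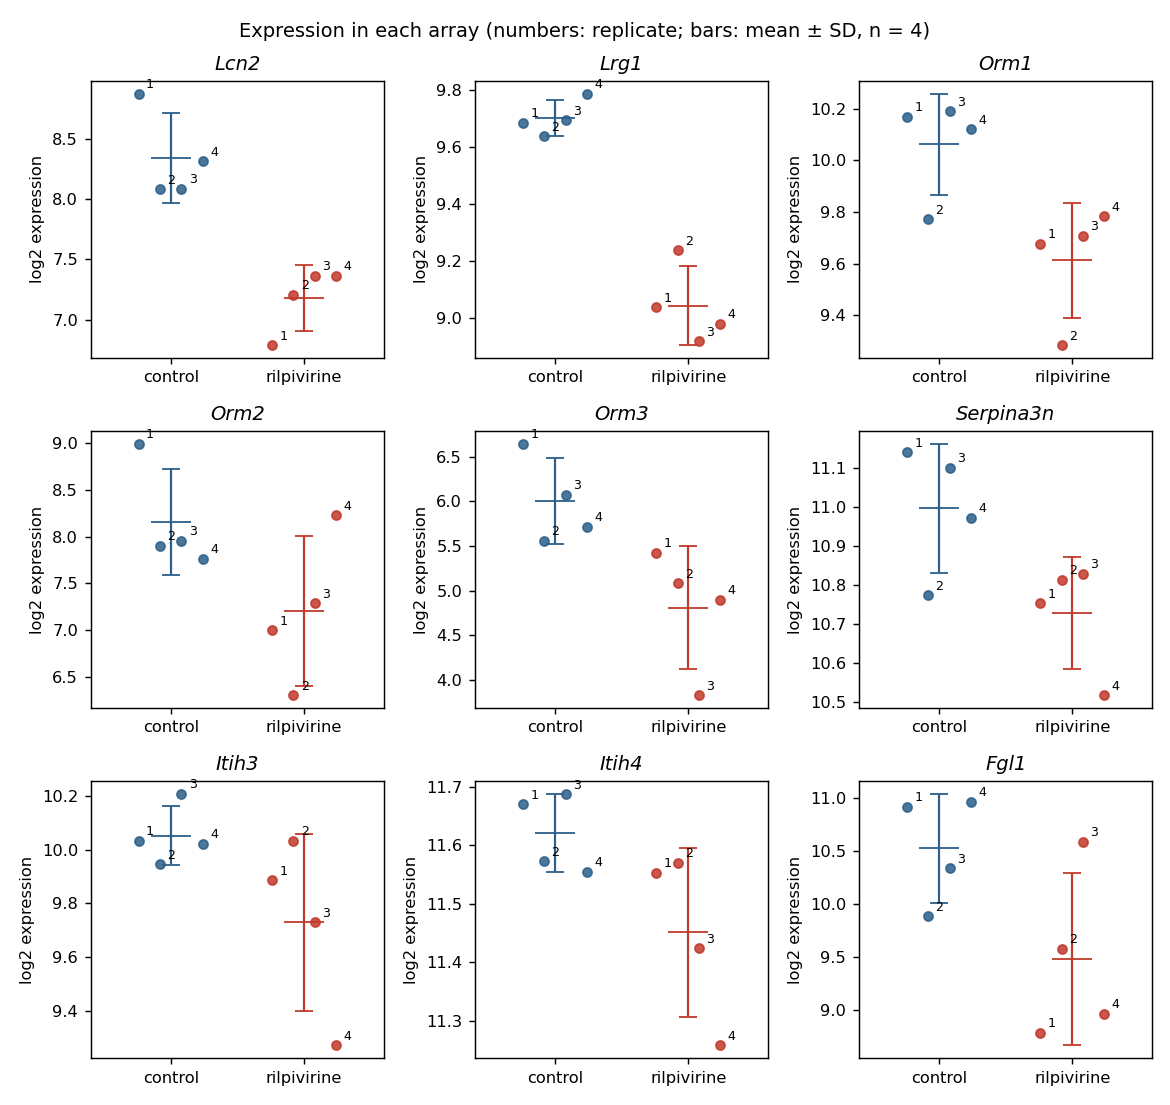
Log2 expression of the 9 measured genes on each array, with the replicate number beside each point and the group mean ± SD (n = 4 per group) as bars; each panel has its own vertical axis. The groups are apart in Lcn2, Lrg1 and Orm3, while rilpivirine replicate 4 reaches into the controls in Orm2 and replicate 3 does so in Fgl1.

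Lcn2 encodes lipocalin 2, which binds bacterial iron carriers and so withholds iron from microbes. It measured 6.79, 7.21, 7.36 and 7.37 log2 in rilpivirine replicates 1 to 4, and 8.87, 8.08, 8.09 and 8.31 in control replicates 1 to 4. The highest rilpivirine array lay 0.72 below the lowest control, with control replicate 1 the highest of all. The means were 7.18 ± 0.27 and 8.34 ± 0.37 (SD, n = 4 each), a 2.23-fold lower level and a log2 difference of -1.16 ± 0.20 (SE; 95% confidence interval -1.59 to -0.72; limma adjusted p = 0.595 over all genes). With each sample left out in turn the difference ran from -1.24 to -0.98.

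Lrg1 encodes a leucine-rich glycoprotein of plasma that modifies TGF-beta signalling in endothelial cells. Its values were 9.04, 9.24, 8.92 and 8.98 log2 with rilpivirine and 9.69, 9.64, 9.70 and 9.79 in controls. Both groups were tight and lay 0.40 apart at their nearest points. The means were 9.04 ± 0.14 and 9.70 ± 0.06 (SD, n = 4 each), a 1.58-fold lower level, and the difference was -0.66 ± 0.11 (SE; 95% confidence interval -0.90 to -0.41; limma adjusted p = 0.595). Its residual SD within groups, 0.107, was at the 7.54th percentile of all genes tested, and that of Lcn2, 0.326, was at the 83.2nd.

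The orosomucoids, also called alpha-1-acid glycoproteins, are carriers of basic drugs in plasma. Orm1 measured 9.68, 9.28, 9.71 and 9.78 log2 with rilpivirine and 10.17, 9.77, 10.19 and 10.12 in controls. The groups of Orm1 overlapped because control replicate 2, its lowest control, lay just below rilpivirine replicate 4. The difference of Orm1 was -0.45 ± 0.15 (SE), a 1.37-fold lower level.

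Orm2 measured 7.0, 6.30, 7.29 and 8.23 log2 with rilpivirine and 8.99, 7.90, 7.96 and 7.76 in controls. Rilpivirine replicate 4 was above 3 of the 4 controls, and control replicate 1 stood above the rest of its group. The difference of Orm2 was -0.95 ± 0.38 (SE; 95% confidence interval -1.78 to -0.12), -0.65 without rilpivirine replicate 2 and -1.29 without rilpivirine replicate 4. In a fit with small nucleolar RNA signal as covariate, added after seeing the data, it was -0.44. That signal was 0.26, 0.49, 0.02 and -0.20 log2 from the mean of the 8 arrays in rilpivirine replicates 1 to 4. In control replicates 1 to 4 it was -0.60, 0.27, -0.04 and -0.19. The signal tended to be higher with rilpivirine, so this fit can take out part of a group difference, and the 2 cannot be told apart. Orm2 was lowest on rilpivirine replicate 2, where that signal was highest, and highest on control replicate 1, where it was lowest.

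Orm3 measured 5.42, 5.08, 3.82 and 4.90 log2 with rilpivirine and 6.65, 5.56, 6.08 and 5.72 in controls. All rilpivirine arrays lay below all controls, with a gap of 0.14, and rilpivirine replicate 3 was the lowest. The means were 4.81 ± 0.69 and 6.00 ± 0.48 (SD, n = 4 each), a 2.29-fold lower level, and the difference was -1.19 ± 0.33 (SE; 95% confidence interval -1.92 to -0.47). Without rilpivirine replicate 3 it was -0.87. The 3 orosomucoid rows did not rank the rilpivirine arrays alike: Orm1 and Orm2 were lowest in replicate 2 and highest in replicate 4, and Orm3 was lowest in replicate 3 and highest in replicate 1.

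Serpina3n encodes a secreted inhibitor of serine proteases that resembles human antichymotrypsin. It measured 10.75, 10.81, 10.83 and 10.52 log2 with rilpivirine and 11.14, 10.77, 11.10 and 10.97 in controls. Control replicate 2 lay within the rilpivirine range, and the other 3 controls were above it. The difference was -0.27 ± 0.13 (SE; 95% confidence interval -0.55 to 0.01).

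Itih3 and Itih4 encode heavy chains of the inter-alpha-trypsin inhibitor family, of which ITIH3 is attached to hyaluronan in the extracellular matrix. Itih3 measured 9.88, 10.03, 9.73 and 9.27 log2 with rilpivirine and 10.03, 9.94, 10.21 and 10.02 in controls, a difference of -0.32 ± 0.16 (SE). Itih4 measured 11.55, 11.57, 11.42 and 11.26 with rilpivirine and 11.67, 11.57, 11.69 and 11.56 in controls, a difference of -0.17 ± 0.11 (SE; 95% confidence interval -0.42 to 0.08). The groups overlapped in both genes, and rilpivirine replicate 4 was the lowest array in both. Without that array the differences were -0.17 for Itih3, -0.11 for Itih4 and -0.20 for Serpina3n, which was also lowest there. The same array had the highest mean level of 6 fat cell markers, 5.02, against 3.65 to 4.08 on the other 7 arrays. Cidec measured 7.85 there and 5.01 to 6.49 elsewhere, and Retn 5.38 there and 2.96 to 3.32 elsewhere. Fabp4, named after its values were seen, measured 6.78 there and 4.44 to 5.73 elsewhere. Lep was highest in a control, at 3.12. The defining marker Adipoq was at 2.34 to 2.85 on all arrays, around the low-level value of 2.72, and was highest on that same array. Whether these marker values come from fat cells, and what part they have in the 3 differences, was not tested.

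Fgl1 encodes fibrinogen-like protein 1, also known as hepassocin, which hepatocytes secrete and which is a ligand of the lymphocyte receptor LAG3. It measured 8.79, 9.58, 10.59 and 8.97 log2 with rilpivirine and 10.92, 9.89, 10.34 and 10.96 in controls. Rilpivirine replicates 1, 2 and 4 lay below all controls, and replicate 3 was above control replicates 2 and 3. The means were 9.48 ± 0.81 and 10.53 ± 0.51 (SD, n = 4 each), a 2.06-fold lower level, with a difference of -1.04 ± 0.37 (SE; 95% confidence interval -1.86 to -0.23). Leaving out rilpivirine replicate 3 gave -1.41, and leaving out rilpivirine replicate 1 gave -0.81.

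Within the rilpivirine group, replicate 1 was lowest in 2 genes (Lcn2 and Fgl1), replicate 2 in 2 (Orm1 and Orm2), replicate 3 in 2 (Lrg1 and Orm3) and replicate 4 in 3 (Serpina3n, Itih3 and Itih4). Among controls, replicate 2 was the lowest array in 7 of the 9 genes, the exceptions being Orm2 and Itih4, where replicate 4 was lowest. Control replicate 2 was below its group mean in 9 of 9 genes, while 50.6% of all genes tested were above their group mean on that array. Control replicate 1 was above its group mean in 7 of 9. Leaving out control replicate 2 gave a difference of -1.24 for Lcn2, -1.34 for Orm3 and -1.26 for Fgl1.

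The spread within groups was not itself used to choose the genes. It is not independent of that choice, since genes with a wide spread reach large differences more easily, and it is only described. Orm2, Fgl1 and Orm3 had residual SDs of 0.692, 0.679 and 0.596, at the 99.3rd, 99.2nd and 98.3rd percentiles of all genes tested, where the median was 0.208. Itih4, at 0.112, and Lrg1 lay below the 10th percentile, and Orm1, at 0.210, lay near the median.

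**Figure D2:**
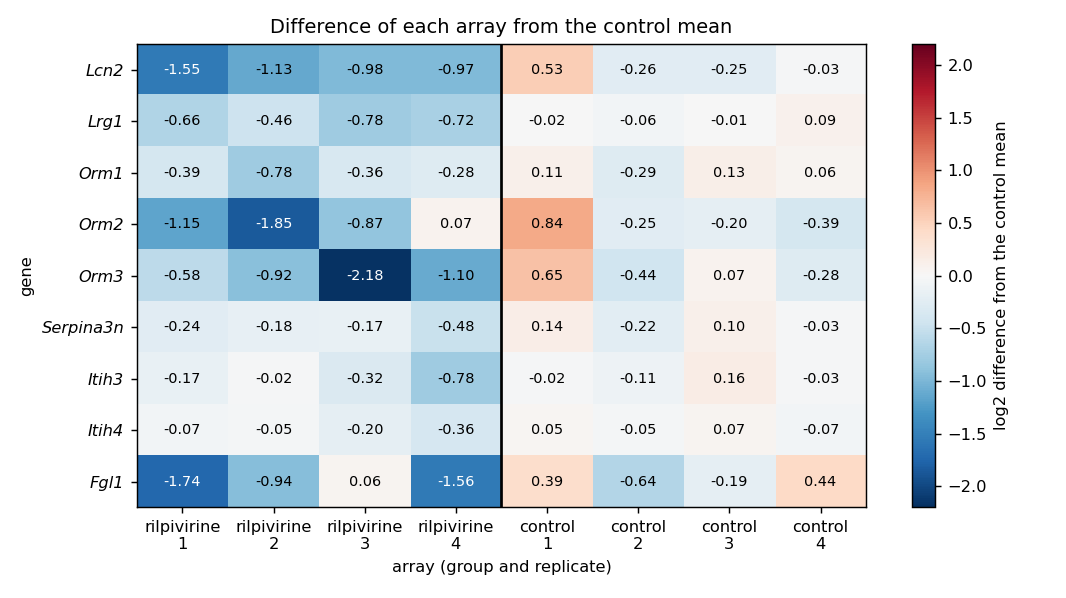
Log2 difference of each of the 8 arrays from the mean of the 4 controls, for the 9 genes (rows), with rilpivirine arrays left of the line and controls right of it. Lcn2, Lrg1 and Orm3 are below the control mean on all 4 rilpivirine arrays by 0.46 or more, while the lowest cell moves between arrays from gene to gene, down to -2.18 for Orm3 in replicate 3.

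Relatives of these genes in the same protein families gave a mixed picture, and limma called 0 of them at an adjusted p of 0.05. Among other lipocalins, 5 of 5 tested were lower, with differences of -0.16 to -0.03 and a median of -0.07. With arrays centred on their medians, with a further quantile step, and without rilpivirine replicate 3 or 4, the split was 3 lower and 2 higher, with medians of -0.03, -0.07, -0.02 and -0.11. The retinol carrier Rbp4 had the difference of -0.16 ± 0.10 (SE) and its groups did not overlap. The prostaglandin synthase Ptgds had one of -0.12, and Ambp, the precursor of alpha-1-microglobulin and of the light chain bikunin, one of -0.07 ± 0.11 (SE).

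Of 11 other clade A serpins tested, 8 were lower and 3 higher, and the median was -0.06. Serpina10, which with protein Z inhibits factor Xa, had a difference of -0.39 ± 0.13 (SE), and Serpina6, the carrier of corticosteroids in plasma, also one of -0.39 ± 0.14 (SE). Serpina12, an adipokine, had one of 0.36 ± 0.20 (SE). Serpina3k, the neighbour of Serpina3m and Serpina3n on chromosome 12, had no row of its own symbol.

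Itih4, Itih3 and Itih1 lie side by side on chromosome 14, and Itih1 measured 10.67, 10.59, 10.32 and 10.23 log2 with rilpivirine against 10.19, 10.39, 10.58 and 10.34 in controls. Its difference was 0.08 ± 0.14 (SE; 95% confidence interval -0.22 to 0.38), and -0.04 with the small nucleolar RNA covariate. Itih2 and Itih5 had differences of 0.09 ± 0.10 and 0.11 ± 0.14 (SE). The fibrinogen chains Fgb, Fga and Fgg, which share a domain with FGL1, had differences of -0.11, -0.09 and -0.06, and that of Fgg was 0.02 with the small nucleolar RNA covariate. Angptl4, an inhibitor of lipoprotein lipase, had one of -0.53 ± 0.34 (SE), and Lag3, the receptor of FGL1, one of 0.05 ± 0.13 (SE). Whether the 9 genes differ from their relatives was not tested, since the 9 were chosen for their differences.

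**Figure D3:**
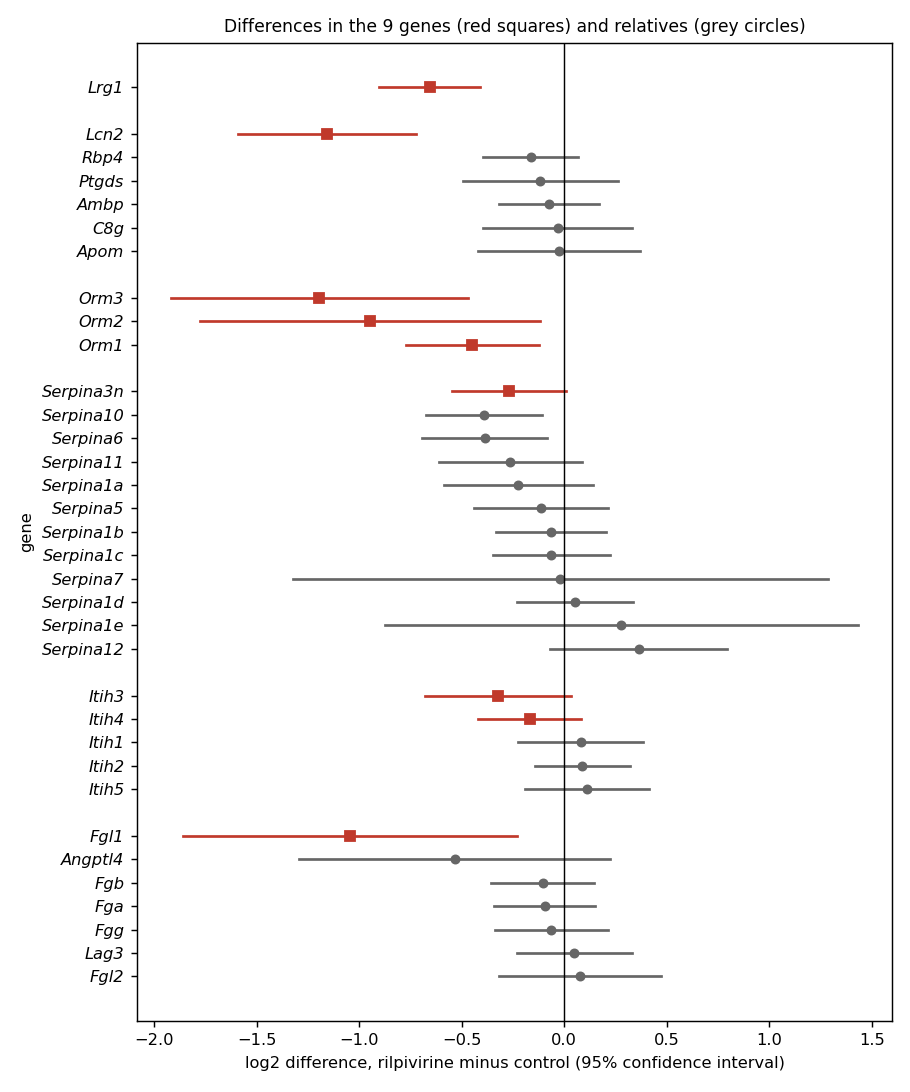
Log2 difference, rilpivirine minus control, with its 95% confidence interval from limma (n = 4 per group), for the 9 genes (red squares) and their tested relatives by family (grey circles, with the FGL1 receptor gene Lag3 in the last block). The intervals of 6 of the 9 genes lie below 0 and those of Serpina3n, Itih3 and Itih4 span 0; among relatives, Serpina10 and Serpina6 lie below 0 and the rest span it.

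Of 30 other acute phase genes tested, 25 had lower means with rilpivirine and 5 had higher ones, and the median difference was -0.11; 0 passed an adjusted p of 0.05 in limma, and 7 were lower at an unadjusted p under 0.05, against 3.21% of all genes. The metallothioneins Mt2 and Mt1, which bind zinc, had differences of -2.0 ± 0.56 and -1.10 ± 0.36 (SE). Saa4, a serum amyloid A made without induction, had one of -0.57 ± 0.19 (SE). Serping1, the inhibitor of C1, was the 1 gene of the 30 whose groups did not overlap, with a difference of -0.26 ± 0.11 (SE), and was named after its values were seen. Without rilpivirine replicate 2, 27 were lower and 3 higher, and with arrays centred on their medians 21 were lower and 9 higher (median -0.06).

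Plasma proteins whose synthesis drops in inflammation showed no common direction in the main fit, with 3 of 6 lower and 3 higher. The split was 5 lower and 1 higher with array weights, and without rilpivirine replicate 3, control replicate 1 or control replicate 2. With arrays centred on their medians, or without control replicate 3, it was 2 lower and 4 higher. Albumin had a difference of 0.05 ± 0.10 (SE), which was -0.01 after a further quantile normalization, and Serpina6 the -0.39 given above.

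The route from interleukin 6 to STAT3 was read gene by gene. The ligands Il6, Il11 and Il22 were below the low-level value and were not tested. Of 16 genes tested, 13 were lower and 3 higher, but 7 were lower and 9 higher with arrays centred on their medians, and 9 and 7 after a further quantile normalization. Their median was -0.04, or 0.01 with centring; limma called 0 at an adjusted p of 0.05 and 2 were lower at an unadjusted p under 0.05, against 3.21% of all genes.

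Those 2 were Il6ra and Stat3. Il6ra, the receptor chain that binds interleukin 6, measured 7.67, 7.43, 8.03 and 6.40 log2 with rilpivirine and 8.29, 7.74, 8.63 and 8.44 in controls. Its groups overlapped where rilpivirine replicate 3 exceeded control replicate 2, and its difference was -0.89 ± 0.31 (SE; limma adjusted p = 0.855), or -0.56 without rilpivirine replicate 4. Stat3 measured 8.16, 7.91, 7.85 and 7.96 with rilpivirine and 8.33, 8.16, 8.48 and 8.13 in controls, a difference of -0.30 ± 0.12 (SE).

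The shared signalling chain Il6st had a difference of -0.04 ± 0.10 (SE), the oncostatin M receptor Osmr one of -0.02 ± 0.13 (SE) and the leukaemia inhibitory factor receptor Lifr one of -0.18 ± 0.15 (SE). Socs3, which STAT3 induces and which shuts the receptor off, had one of 0.04 ± 0.14 (SE), and -0.07 as the mean of its probe sets. The signs of Il6st, Osmr and Socs3 changed under 2, 6 and 4 of 17 alternative settings.

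The list for the interleukin 1 and NF-kB route also held Tnf, Tnfrsf1a, Tnfrsf1b, Il17ra, Il17rc and Tlr4, which belong to other receptors or ligands. In it 10 of 18 genes were lower and 8 were higher. Their median was -0.11, and -0.03 without rilpivirine replicate 2, and limma called 0 at an adjusted p of 0.05. Il1r1, the signalling receptor of interleukin 1, measured 5.82, 5.81, 7.28 and 6.74 log2 with rilpivirine and 8.13, 6.21, 7.82 and 7.38 in controls. Control replicate 2 was low in it, as in the 9 genes, and its difference was -0.97 ± 0.42 (SE), or -0.43 with the small nucleolar RNA covariate. Tnfrsf1b and Irak1, a receptor of tumour necrosis factor and a kinase below the interleukin 1 receptor, had differences of -0.30 ± 0.15 and -0.41 ± 0.22 (SE).

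Of 6 liver transcription factors 5 were lower and 1 higher. Cebpb, the C/EBP factor of the acute phase response, had a difference of -0.47 ± 0.26 (SE), -0.21 with the small nucleolar RNA covariate, and Cebpa and Hnf4a had differences of -0.21 ± 0.15 and -0.09 ± 0.11 (SE). limma called 0 of the 6 at an adjusted p of 0.05, and 0 had an unadjusted p under 0.05.

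**Figure D4:**
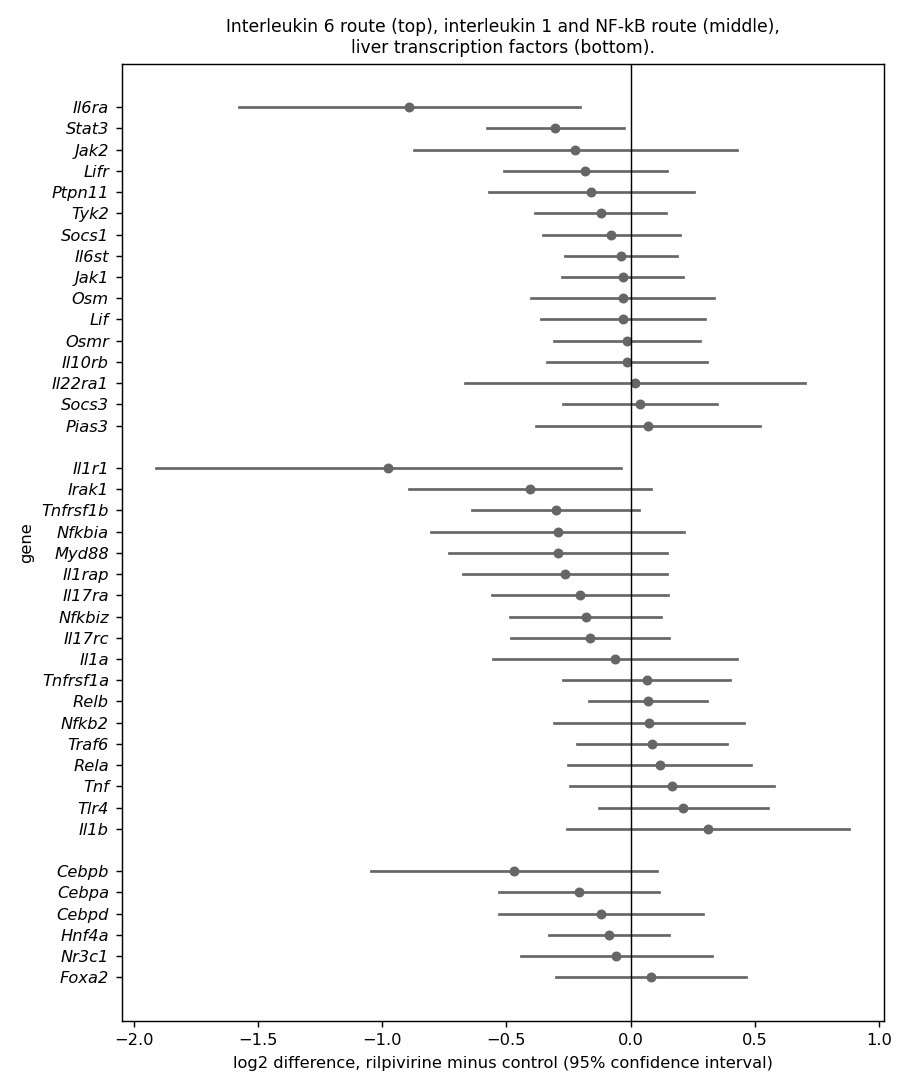
Log2 difference, rilpivirine minus control, with its 95% confidence interval from limma (n = 4 per group), for the tested genes of the interleukin 6 route, the interleukin 1, TNF and NF-kB route (with Il17ra, Il17rc and Tlr4), and liver transcription factors. Il6ra, Stat3 and Il1r1 are the genes whose intervals lie below 0, and no gene passed an adjusted p of 0.05.

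The partners of lipocalin 2 and LRG1 were read next. Slc22a17, a lipocalin 2 receptor, had a difference of -0.12 ± 0.12 (SE), Mmp9, which lipocalin 2 binds in neutrophils, one of -0.14 ± 0.17 (SE), and Bdh2, of mammalian siderophore synthesis, one of 0.31 ± 0.17 (SE). Lrp2 and Mc4r, which also encode receptors of lipocalin 2, were below the low-level value. Of 11 genes of the TGF-beta and endoglin route that LRG1 modifies, 7 were lower and 4 higher; the median was -0.08, or 0.003 with the small nucleolar RNA covariate. Gdf2, which encodes the ligand BMP9, had a difference of -0.20 ± 0.12 (SE), Eng, which encodes endoglin, 0.12 ± 0.12 (SE), and Smad1 0.14 ± 0.13 (SE). limma called 0 of these partners at an adjusted p of 0.05, and 0 had an unadjusted p under 0.05. Without rilpivirine replicate 2 an unadjusted p under 0.05 was found for 1 lipocalin 2 partner, Bdh2, which was higher, and with the covariate also for 1.

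Lipocalin 2 and LRG1 are also made by neutrophils, and other cell types were therefore read from their markers. Of 14 neutrophil markers 5 had means below the low-level value of 2.72, among them S100a8, at 2.13 to 2.38 on all arrays, and S100a9, at 2.11 to 2.92. Of the 9 tested, 2 were lower and 7 higher and the median was 0.06; without rilpivirine replicate 2 there were 5 lower and 4 higher. Ngp, a granule protein gene, measured 2.50 to 3.27. Prtn3, Ly6g and Ltf had differences of -0.34 ± 0.16, 0.25 ± 0.19 and 0.19 ± 0.15 (SE). The summed linear signal of the 14 markers ran from 116 to 149 with rilpivirine and from 121 to 134 in controls. Other genes of the list lay above the low-level value, with means over the 8 arrays of 4.53 for Prtn3, 4.27 for Csf3r and 3.71 for Cxcr2, the last 2 named after their values were seen. Csf3r and Cxcr2 had differences of -0.15 ± 0.16 and 0.01 ± 0.17 (SE). Prtn3 and Csf3r were the 2 left by the filter at the 50th percentile. The part of neutrophils in the differences of the 9 genes was not tested.

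Macrophage markers were lower in 11 of 11 genes tested, with a median of -0.15. With arrays centred on their medians, or quantile normalized further, 9 were lower and 2 higher, with medians of -0.10 and -0.06. Without control replicate 3 or 4 the split was also 9 and 2, and without rilpivirine replicate 4 it was 7 and 4. Their mean level ran from 6.38 to 6.60 with rilpivirine and from 6.56 to 6.82 in controls. C1qb and C1qa, complement genes of Kupffer cells, had differences of -0.50 ± 0.14 and -0.33 ± 0.11 (SE) with groups that did not overlap, as in 1.73% of all genes, and C1qc one of -0.22 ± 0.14 (SE). The other tested macrophage markers had overlapping groups, with differences from -0.47 ± 0.32 in Marco to -0.01 ± 0.25 (SE) in Vsig4. Among them Clec4f, Adgre1 and Timd4 had differences of -0.13, -0.12 and -0.04. These other markers were named after their values were seen. Endothelial markers were higher in 5 of 6, with a median of 0.33 and differences of 0.43 ± 0.17, 0.40 ± 0.17 and 0.40 ± 0.17 (SE) in Kdr, Oit3 and Stab2; with the small nucleolar RNA covariate these were 0.22, 0.23 and 0.22. Without rilpivirine replicate 2 the endothelial median was 0.24. At an unadjusted p under 0.05 in limma there were 3 of the 6, against 5.21% of all genes in either direction. That count was 0 without rilpivirine replicate 1 or 2, without control replicate 1 or 4, and with the covariate. It was 1 without rilpivirine replicate 3. Bile duct markers, whose cells can also make lipocalin 2, were lower in 2 and higher in 2 of 4, and their median was 0.06; Sox9, Krt7 and Krt19 had differences of 0.15, 0.12 and -0.02. Fat cell markers were lower in 2 and higher in 3 of 5, with Retn, Lep and Cidec at 0.63 ± 0.42, -0.13 ± 0.13 and 0.15 ± 0.53 (SE); their median of 0.04 was -0.20 without rilpivirine replicate 4 and 0.24 without rilpivirine replicate 2. Of 10 hepatocyte markers 6 were lower and 4 higher; the median was -0.06, or 0.004 without control replicate 3, and Pck1, Cyp2e1 and Hnf4a at -0.62 ± 0.24, -0.09 ± 0.10 and -0.09 ± 0.11 (SE). limma called 0 markers of any of these cell types at an adjusted p of 0.05, and the part of macrophage or endothelial cells in the differences of the 9 genes was not tested.

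The genes whose pattern over the 8 arrays was nearest to that of Lcn2 were Saa3, Plcb1, C8a, Plce1 and C9, measured as the root mean square difference after each gene was centred on its mean. That pattern includes the group difference by which the 9 genes were chosen, so genes with a similar fall rank near. Likeness is therefore only described, also among the 9. The differences of these neighbours ran from -0.62 in Plcb1 to -0.83 in C8a. The measure was 0.299 log2 for Saa3, an inducible serum amyloid A, and 0.316 for C8a, a chain of complement component 8, among 2429 genes that varied enough to be compared. Saa3 measured 4.95, 4.95, 5.84 and 5.60 log2 with rilpivirine and 6.94, 5.68, 6.10 and 5.89 in controls, so that control replicate 1 was the highest array, as in Lcn2. Among the 9 genes the nearest to Lcn2 was Lrg1, at 0.395, and the farthest was Itih4, at 0.588.

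The nearest to Lrg1 were Tpst1, Wnt5b, Slc23a3, Ndufs5 and Gne, at 0.140 to 0.158 log2 among 10489 genes, and among the 9 genes Serpina3n, at 0.241. Here too the group difference is part of the pattern, and the neighbours outside the 9 had differences from -0.42 in Tpst1 to -0.67 in Gne. By deviations from the group means alone, the genes nearest to the mean of the 9 were Kdf1, Il34, Hexim1, Zfp189 and Fmo1, at 0.052 to 0.058 log2. That mean was -0.04, -0.01, 0.05 and 0.003 on rilpivirine replicates 1 to 4, where the 9 genes departed in opposite directions. On control replicates 1 to 4 it was 0.30, -0.26, -0.01 and -0.03. Genes with little spread were not left out here, so this likeness rests mostly on control replicates 1 and 2.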

How the data were processed

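Liver RNA (300 ng a sample) was hybridised to Affymetrix whole-transcript arrays, per the labels' protocols. The table deposited by the authors holds log2 values of 41345 probe sets. RMA and limma are named, without their roles, per the submitters' processing notes; the scale was read from the values. The sources used here give no versions and no genome build. RMA normally puts all arrays on a common scale, and then a change in total RNA would not be seen. Values ran from 0.696 to 13.4, and 0 pairs of arrays were identical. Their number limits the precision.

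By the platform annotation, 23521 probe sets had 1 gene symbol, 1814 several and 16010 none. A filter at the 25th percentile of gene means, 2.72 log2, removed 5545 of 22180 genes. Two-sided moderated tests came from limma 3.58.1 (lmFit, eBayes; R 4.3.3), with Benjamini-Hochberg adjustment over all 16635 genes; the script was tested on simulated data. The 10 genes, the lists of related genes and the motifs were chosen with earlier results of these data known. Named genes were the members, up to 3 genes of each list with the smallest unadjusted p, a fixed set of partners and the nearest 5 by pattern. Windows were aligned with Biopython 1.88, and figures drawn with matplotlib 3.10.9 in Python 3.11.15. Alternatives were other low-level filters, 2 other scalings, array weights, trended robust moderation, the replicate number as a block, the mean of a gene's probe sets, each sample left out, and, added after seeing the data, a small nucleolar RNA covariate. The labels give no batches.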

Additional observations from a re-analysis of the deposited data

Results flagged for a closer look

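In Orm1, control replicate 2 stood below the rest of its group, at 9.77 log2 against 10.12 to 10.19, a gap that took up 0.832 of the group's range and just passed the 95% critical value of Dixon's test for 4 samples. In Orm2, control replicate 1 stood above the rest of its group, at 8.99 log2 against 7.76 to 7.96, with a ratio of 0.841. These were 2 of 18 groups examined (9 genes in 2 groups), chance alone marks about 1 group in 20, and both ratios were near the critical value. Without control replicate 2 the difference of Orm1 was -0.55, and without control replicate 1 that of Orm2 was -0.67.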

How the results depend on the processing

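With 4 arrays per group and 0 of 16635 genes past an adjusted p of 0.05 in limma, only values and not calls can be compared across settings. The count of called genes was 0 and the count of lower genes was 9 of 9 under each of 16 listed alternatives and 1 added after seeing the data, and all 153 alternative values of the 9 differences were below 0. The median of the 9 differences ran from -0.68 to -0.62 with each sample left out in turn. It was -0.61 after centring or a further quantile normalization. In a fit with small nucleolar RNA signal as covariate, which was not balanced between the groups, it was -0.44. The cause of that shift was not tested. Genes at an unadjusted p under 0.05 numbered 867, and 578 to 1524 with each sample left out in turn, the most without rilpivirine replicate 4. They split into 534 lower and 333 higher, into 375 and 513 with arrays centred on their medians, and into 442 and 438 after a further quantile normalization, though the median of all genes moved by under 0.1. The labels do not say that replicate numbers pair samples. Deviations of same-numbered samples correlated at -0.25, 0.46, -0.09 and 0.07 across genes, and 1 of 4 rilpivirine samples was nearest to the control of its own number. With the replicate number as a block the count of genes at an unadjusted p under 0.05 was 1071, the count of called genes 0, and the median of the 9 differences -0.66.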
